A study of Mus musculus with 4 samples.

Results

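48 genes for chromatin regulators and remodellers were followed in cultures of primary mouse cortical cells in which CTCF, a DNA-binding protein of insulators and chromatin loop anchors, had been knocked down. They were taken by name from the 37437 genes of each deposited file, through GENCODE vM21 symbols, and all 48 were found. By function they fell into 8 SWI/SNF subunits, 1 ISWI enzyme, 7 CHD proteins, 6 Polycomb proteins and 7 histone deacetylases. The rest were 8 DNA methylation enzymes and MBD proteins, 7 histone methylation enzymes, 3 histone acetyltransferases and the transcription factor Yy1. The shCTCF group was culture in which adeno-associated virus carried the knockdown of CTCF, and the shLAC group was culture treated in the same way against lacZ, a bacterial gene that mice lack. Each group had 2 libraries of total RNA, and both carried virus and a knockdown, with no uninfected culture among the samples used here. The sources used here name no strain, animal age or time after infection, and the promoter that drove the knockdown construct is likewise not stated there. They also do not say whether the 2 libraries of a group were separate cultures, so that p-values measure only how these libraries vary, which can be technical variation.

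Chromatin regulators set how open DNA is to transcription. Remodelling ATPases of the SWI/SNF, ISWI and CHD families move or evict nucleosomes, Polycomb complexes place repressive marks on histones, and deacetylases remove the acetyl groups that acetyltransferases add. Methyltransferases of DNA and TET enzymes write and oxidise cytosine methylation, which some MBD proteins read. Neurons carry particular versions of these machines, such as the SWI/SNF subunit Actl6b and the remodeller Chd5, and mutations in many of the genes cause human neurodevelopmental disorders.

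Levels are given as scaled TPM, the deposited TPM (a length-corrected share of transcripts) divided by a median-ratio factor for each library. Differences are log2 fold changes of scaled TPM + 1, shCTCF over shLAC, and a gene is said to have risen or fallen where limma's adjusted p was below 0.05 over the 11139 protein-coding genes tested. Depth cannot be read from TPM, so counting error is not stated. One control library, shLAC replicate 2, stood apart: predicted genes held 27.98% of its TPM, against 9.21% to 11.7% elsewhere, and its factor was 0.831 against 1.05 to 1.10. Without scaling, the median log2 fold change over the tested genes was 0.17. Ctcf (ENSMUSG00000005698, chromosome 8, 105636568 to 105682922, + strand, GRCm38) was at 8.11 and 8.80 scaled TPM in the shLAC libraries and at 3.25 and 3.40 in the shCTCF libraries, 39.3% of control, with a log2 fold change of -1.13 (standard error 0.0668, limma adjusted p = 0.00209). All 10 pan-neuronal markers were expressed, with a summed level of 1147 and 1192 in shLAC and 1215 and 1197 in shCTCF scaled TPM, and 2 of them, Rbfox3 and Syn1, rose. Excitatory markers summed to 213 and 223 in shLAC and 254 and 245 in shCTCF, with no overlap and 0 of 9 tested passing. Their signs were mixed, with 5 of the 9 positive and Neurod2, Neurod6, Bcl11b and Cux2 negative. Slc17a7 (means of 71.6 in shLAC and 85.6 in shCTCF) and Camk2a (81.7 and 101) made up most of the sums. Of 9 inhibitory markers tested, Slc32a1 rose and Calb2 fell. Astrocyte markers summed to 139 and 117 in shLAC and 112 and 89.4 in shCTCF, and 2 of 10, Aqp4 and Slc1a3, fell. Oligodendrocyte lineage markers summed to 87.7 and 74.0 in shLAC and 88.3 and 79.8 in shCTCF, with overlap and 0 of 8 tested passing. The sums for 12 progenitor and proliferation markers were 114 and 114 in shLAC and 120.4 and 121 in shCTCF. Of 9 microglial and 6 endothelial markers 0 reached the filter, with C1qb and Cldn5 at 0 in every library, and 1 of 6 fibroblast and mural markers, Dcn, was tested and fell. In such bulk RNA, fewer cells of a type and less RNA per cell cannot be told apart, and the part of these cell types in the values below was not tested.

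Differences of the chromatin machinery between the groups were small, and 1 gene passed. Of 48 genes, all of which passed the expression filter, 1 fell (Smarcc2) and 0 rose, against 3.68% and 2.83% of all tested genes (6.51% in either direction). At an unadjusted p below 0.05, 5 were higher and 3 lower, which is 16.7% of the genes against 23.9% of all tested. The median log2 fold change of the 48 genes was 0.019, and 28 were positive and 20 negative. In size, the median was 0.091, as it was for all tested genes (0.089). The values ran from -0.24 in Smarcc2 to 0.27 in Mbd3, and the 95% intervals of the 48 genes lay between -0.36 and 0.48. With the standard errors of these genes, a log2 fold change of 0.20 to 0.46 (median 0.29) was needed to pass, so smaller shifts were not detectable with 2 libraries per group. Both shCTCF libraries lay above both shLAC libraries in 17 genes and below them in 12, 60.4% in all, against 54.8% of tested genes (27.6% above and 27.2% below). In the values as deposited, where all genes are shifted upward, 45 of the 48 were positive and 0 passed.

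**Figure D1:**
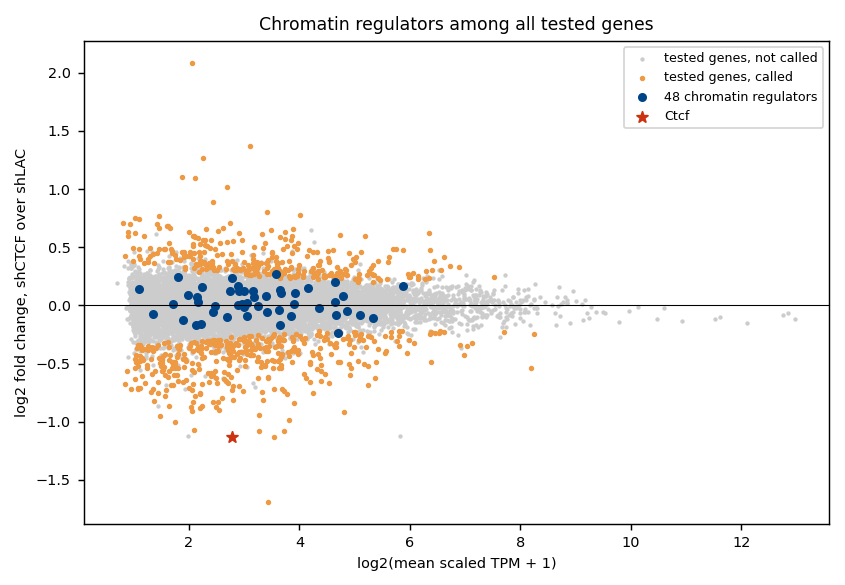
Log2 fold change (shCTCF over shLAC) against log2(mean scaled TPM + 1) for 11139 tested genes, with the 48 chromatin regulators in blue and Ctcf as a red star. The 48 genes lie between -0.24 and 0.27, inside the band of genes that did not pass except for Smarcc2, while Ctcf is at -1.13.

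Levels of the 48 genes spanned from 1.13 scaled TPM for Kdm6b, a demethylase of the Polycomb mark on histone H3, to 57.7 for Chd3, a remodeller of the NuRD complex (mean of 4 libraries). Behind Chd3 stood Smarca2 at 39.3, Hdac2 at 33.1 and Hdac3 at 28.2, and the median gene was at 7.61, against 6.96 over all tested genes. The libraries of Chd3 did not overlap those of any other member, though an abundant predicted gene, Gm22442, lies within its locus on the same strand. The libraries of Smarca2 lay above those of Hdac2, while Hdac3, at 28.9 and 28.4 scaled TPM in the shLAC libraries and at 27.3 and 28.1 in the shCTCF libraries, overlapped with Smarca4 and Smarcc2. The merged exons of these genes were long, with a median of 7881 nt against 4734 nt over all tested genes.

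**Figure D2:**
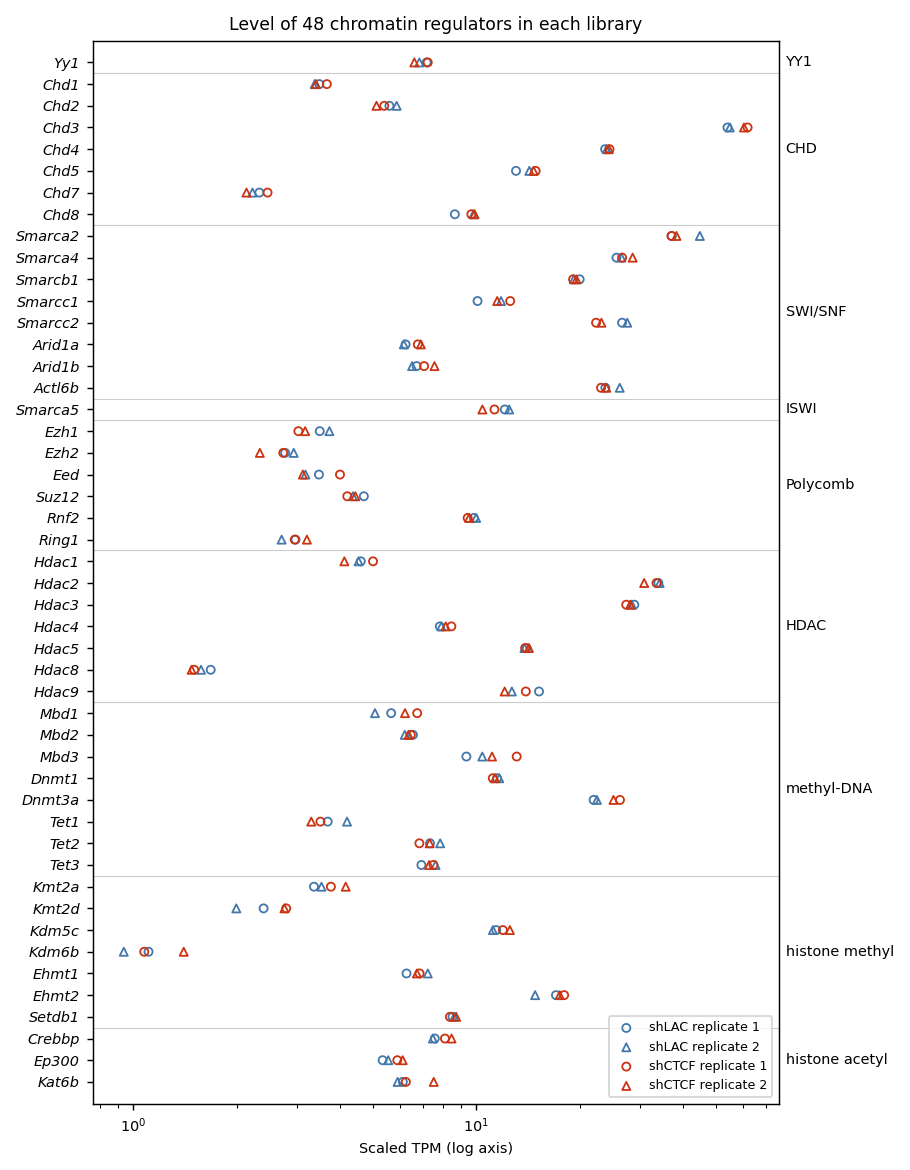
Scaled TPM of each gene (log axis) in the 2 shLAC libraries (blue) and the 2 shCTCF libraries (red), by functional group, with circles for replicate 1 and triangles for replicate 2. Genes differ from 1.13 to 57.7 scaled TPM, while the 4 points of 1 gene lie close together.

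SWI/SNF, called BAF in mammals, is a remodelling complex built around 1 of a pair of ATPases, Smarca4 or Smarca2, on a core that holds Smarcb1 and the scaffold proteins Smarcc1 and Smarcc2. Smarcc2 (ENSMUSG00000025369, chromosome 10, 128459248 to 128490482, + strand), which encodes BAF170, was the single member that fell. It was at 26.6 and 27.5 scaled TPM in the shLAC libraries and at 22.3 and 23.1 in the shCTCF libraries. Both knockdown libraries were below both controls, at 84.0% of control, and the log2 fold change was -0.24 (standard error 0.0501, limma adjusted p = 0.0406), with a 95% interval of -0.36 to -0.12. The call was lost without shLAC replicate 2, shCTCF replicate 1 or shCTCF replicate 2 (limma adjusted p = 0.0609, 0.154 and 0.125), with log2 fold changes of -0.22, -0.22 and -0.27. It was also lost in a fit over 12816 genes of any kind (limma adjusted p = 0.0997) and without scaling (-0.049 on the log2 scale, limma adjusted p = 0.909).

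Its close paralog Smarcc1, which encodes BAF155, was at 10.1 and 11.8 scaled TPM in the shLAC libraries and at 12.5 and 11.5 in the shCTCF libraries. These values overlapped, and the log2 fold change was 0.13 (95% interval -0.069 to 0.32, limma adjusted p = 0.391). Smarcc1 shares its locus with Dhx30 on the opposite strand, and reads of such pairs cannot be told apart where counting does not use strand. The ratio of Smarcc1 to Smarcc2, which does not depend on how libraries are scaled, was -1.40 and -1.22 in the controls and -0.83 and -1.01 in the knockdowns on the log2 scale. The libraries did not overlap, and the shift of 0.39 was the largest in size of 11 such ratios. This ratio reuses the values of Smarcc2, already singled out by its call, and is not separate support for its fall. With 2 libraries per group, an exact permutation test (2-sided) cannot go below p = 0.333.

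The promoters of the scaffold pair are shown because Smarcc2 fell while Smarcc1 did not pass. RefSeq promoter windows on GRCm38.p6 (250 bases before to 50 after a start) matched 39 of the 48 genes, in 49 windows. They were searched on both strands for AGGGGGC, the central letters of the CTCF motif. These letters occurred in 16 of the 49 windows (32.7%), against 10.6% of 32851 windows of all genes, and the member windows were richer in G and C (median 69.7% against 52.7%). The windows with a match belonged to 14 genes, among them Smarcc2, Smarca2, Arid1a, Chd4, Dnmt1, Dnmt3a, Crebbp, Ep300 and Yy1. Smarcc2 passed the test, the single gene to do so among the 14 and among all 48, against 6.51% of all tested genes. A link between these letters and the fall was not tested. Each line below gives the 250 bases before the start, 5′ to 3′ on the strand of the gene, in lower case with a match in capitals. The windows are chr10:128458986-128459235 on the + strand for Smarcc2 and chr9:110131774-110132023 on the + strand for Smarcc1. The match of Smarcc2 begins 47 bases before its start. The window of Smarcc1 holds no match, and its RefSeq start lies 14316 bases from the start of the GENCODE gene. A match is a description of letters and not a measured site of binding.
Smarcc2: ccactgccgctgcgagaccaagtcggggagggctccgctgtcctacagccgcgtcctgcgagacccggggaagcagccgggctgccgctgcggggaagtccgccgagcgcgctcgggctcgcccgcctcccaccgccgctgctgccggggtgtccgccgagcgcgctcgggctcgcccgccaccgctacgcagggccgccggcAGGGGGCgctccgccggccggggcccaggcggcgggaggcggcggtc
Smarcc1: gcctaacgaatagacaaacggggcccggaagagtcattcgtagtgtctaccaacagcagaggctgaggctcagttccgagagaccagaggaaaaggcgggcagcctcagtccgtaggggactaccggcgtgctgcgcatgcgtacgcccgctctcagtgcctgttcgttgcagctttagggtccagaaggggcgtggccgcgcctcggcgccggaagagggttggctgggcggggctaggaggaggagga

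The ATPases of SWI/SNF did not pass. Smarca4, which encodes BRG1, was at 25.6 and 26.5 scaled TPM in the shLAC libraries and at 26.6 and 28.5 in the shCTCF libraries, with a log2 fold change of 0.079 (95% interval -0.052 to 0.21, limma adjusted p = 0.425). Smarca2, which encodes BRM, was at 37.1 and 44.8 scaled TPM in the shLAC libraries and at 37.0 and 38.3 in the shCTCF libraries, with a log2 fold change of -0.11 (95% interval -0.32 to 0.092, limma adjusted p = 0.469). The 2 shLAC libraries of Smarca2 differed more from each other than the groups did, since replicate 2 was high and replicate 1 lay within the knockdown range. In fits with 1 shLAC library left, the log2 fold change of Smarca2 was -0.24 without replicate 1 and 0.020 without replicate 2. Whether Smarca2 passed depended on which library was left out. Smarca2 was the more abundant ATPase in every library, and the log2 ratio of Smarca4 to Smarca2 was -0.54 and -0.76 in the controls and -0.48 and -0.42 in the knockdowns. Actl6b, the actin-like subunit of neuronal complexes, was at 23.8 and 26.2 scaled TPM in the shLAC libraries and at 23.1 and 23.9 in the shCTCF libraries, with a log2 fold change of -0.083 (95% interval -0.23 to 0.061, limma adjusted p = 0.449). Its progenitor counterpart Actl6a was far lower, and the log2 ratio of Actl6b to Actl6a was 2.62 and 2.88 in the controls and 2.80 and 2.73 in the knockdowns, so the groups overlapped. Arid1a and Arid1b, the large DNA-binding subunits, were each higher in both knockdown libraries, at 110.3% and 111% of control, with log2 fold changes of 0.12 and 0.13 that did not pass (limma adjusted p = 0.250 and 0.271). Smarcb1, a core subunit, was at 98.7% of control with overlapping libraries. The 8 subunits summed to 162 ± 8.90 in shLAC and 157 ± 3.46 in shCTCF scaled TPM (mean ± SD, n = 2), 96.7% of control, and the sums of the 2 groups overlapped.

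Smarca5, also called SNF2H, is the ATPase of ISWI complexes, which space nucleosomes. It was at 12.1 and 12.5 scaled TPM in the shLAC libraries and at 11.3 and 10.4 in the shCTCF libraries. Both knockdown libraries lay below both controls, at 88.4% of control, and the log2 fold change was -0.17 (95% interval -0.31 to -0.023, limma adjusted p = 0.157), which did not pass. The annotation holds a transcribed pseudogene, Smarca5-ps, so that some of its reads may be divided with that copy.

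The CHD proteins are remodellers with chromodomains, of which Chd3, Chd4 and Chd5 are the alternative ATPases of the deacetylase complex NuRD. None of the 7 passed with limma (6.51% of all tested genes did), and 1, Chd3, had an unadjusted p below 0.05, against 23.9% of all tested genes. Chd3 was at 53.9 and 54.8 scaled TPM in the shLAC libraries and at 61.7 and 60.2 in the shCTCF libraries. The groups did not overlap, Chd3 was at 112% of control, and the log2 fold change of 0.16 (95% interval 0.055 to 0.27, limma adjusted p = 0.0866) did not pass. A short predicted gene, Gm22442, lies within Chd3 on the same strand, at a mean of 184 TPM as deposited. Reads there are uncertain, and so is the rank of Chd3. Gm23751 and Mir7045 overlap Chd4 on its strand, at means of 7.4 TPM or less as deposited, so reads there are uncertain too. Chd4 was at 23.7 and 24.0 scaled TPM in the shLAC libraries and at 24.4 and 24.3 in the shCTCF libraries, a log2 fold change of 0.030 (95% interval -0.081 to 0.14, limma adjusted p = 0.741). Chd5, enriched in neurons, was at 13.0 and 14.3 scaled TPM in the shLAC libraries and at 14.9 and 14.7 in the shCTCF libraries, a log2 fold change of 0.11 (95% interval -0.034 to 0.25, limma adjusted p = 0.323). Both were higher in each knockdown library, by amounts that did not pass. Chd3 was the most abundant NuRD ATPase in every library, and the log2 ratio of Chd4 to Chd3 was -1.18 and -1.19 in the controls and -1.34 and -1.31 in the knockdowns, lower in both knockdown libraries. The log2 ratio of Chd4 to Chd5 was 0.86 and 0.75 in the controls and 0.72 and 0.73 in the knockdowns, also lower in both. Of the other CHD genes, Chd2 was at 91.9% of control with both knockdown libraries lower. The gene 1810026B05Rik overlaps Chd2 on the same strand, so reads there are uncertain. Chd8, a gene mutated in autism, and Chd1 and Chd7 overlapped between groups, at 106%, 103% and 101% of control. The 7 genes summed to 113 ± 2.51 in shLAC and 121 ± 1.73 in shCTCF scaled TPM, 108% of control, and Chd3 alone was at 54.4 ± 0.60 in shLAC and 61.0 ± 1.06 in shCTCF (mean ± SD, n = 2).

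**Figure D3:**
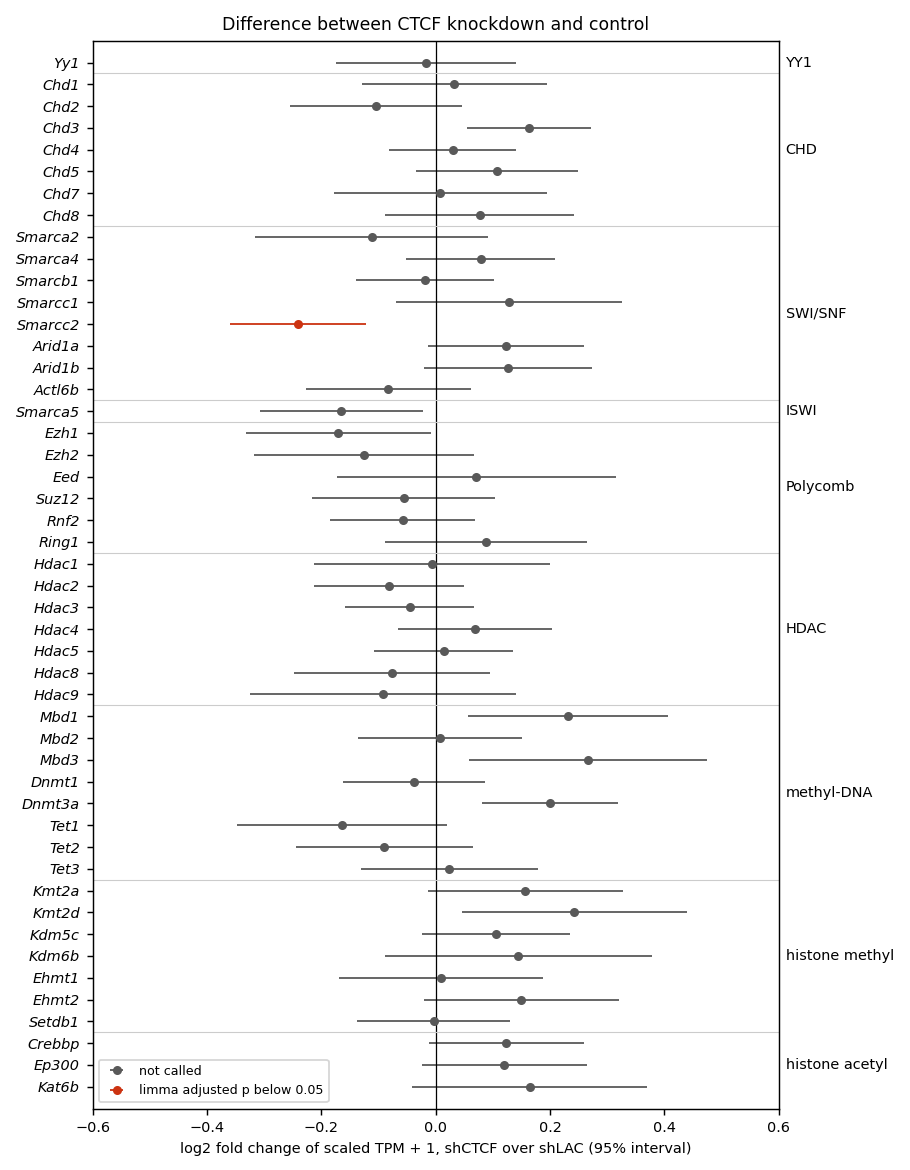
Log2 fold change of scaled TPM + 1 (shCTCF over shLAC) with its 95% interval for each gene, by functional group. Smarcc2, in red, is the single gene that passed, at -0.24, and the intervals of all 48 genes lie between -0.36 and 0.48.

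Polycomb proteins act in a pair of complexes. In the first, Ezh1 or Ezh2 methylates histone H3 together with Eed and Suz12, and in the second Rnf2 (RING1B) or Ring1 ubiquitinates histone H2A. None of the 6 genes passed with limma, against 6.51% of all tested genes, and 1, Ezh1, had an unadjusted p below 0.05, against 23.9%. Ezh1, the form that persists in neurons, was at 3.50 and 3.73 scaled TPM in the shLAC libraries and at 3.03 and 3.17 in the shCTCF libraries, and Ezh2, the form of dividing progenitors, was at 2.77 and 2.93 scaled TPM in the shLAC libraries and at 2.74 and 2.34 in the shCTCF libraries. Both enzymes were lower in each knockdown library, at 85.8% and 88.9% of control, with log2 fold changes of -0.17 (95% interval -0.33 to -0.0087, limma adjusted p = 0.189) and -0.13 (95% interval -0.32 to 0.067, limma adjusted p = 0.392). Ezh1 was above Ezh2 in every library, and the log2 ratio of Ezh2 to Ezh1 was -0.34 and -0.35 in the controls and -0.15 and -0.44 in the knockdowns, with overlap. Eed and Suz12 overlapped between the groups, at 107% and 95.3% of control. Rnf2 was the most abundant of the 6, at 9.83 and 9.98 scaled TPM in the shLAC libraries and at 9.43 and 9.52 in the shCTCF libraries. Its libraries did not overlap, yet the log2 fold change was only -0.058 (95% interval -0.18 to 0.069, limma adjusted p = 0.553). The locus of Rnf2 overlaps Trmt1l and Gm36527, 1 of them on the opposite strand, so reads there are uncertain. Ring1 was at 2.97 and 2.71 scaled TPM in the shLAC libraries and at 2.95 and 3.21 in the shCTCF libraries, and the log2 ratio of Rnf2 to Ring1 was 1.73 and 1.88 in the controls and 1.67 and 1.57 in the knockdowns, lower in both knockdown libraries. The 6 genes summed to 27.1 ± 0.245 in shLAC and 26.1 ± 0.397 in shCTCF scaled TPM, 96.3% of control.

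Yy1, a zinc finger factor that links enhancers to promoters and recruits chromatin complexes, has been described as a CTCF partner. It was at 7.16 and 6.82 scaled TPM in the shLAC libraries and at 7.21 and 6.59 in the shCTCF libraries. The groups overlapped, and the log2 fold change was -0.017 (95% interval -0.17 to 0.14, limma adjusted p = 0.905).

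Histone deacetylases, which remove acetyl groups from histones, differed little between the groups. The 7 log2 fold changes ran from -0.092 to 0.069, 0 passed, and 0 had an unadjusted p below 0.05 with limma, against 23.9% of all tested genes. Hdac2, a class I enzyme, was at 33.9 and 34.2 scaled TPM in the shLAC libraries and at 33.5 and 30.8 in the shCTCF libraries. Its log2 fold change was -0.081 (95% interval -0.21 to 0.050, limma adjusted p = 0.416). Hdac1 was at 4.60 and 4.53 scaled TPM in the shLAC libraries and at 5.0 and 4.12 in the shCTCF libraries, with a log2 fold change of -0.0068 (95% interval -0.21 to 0.20, limma adjusted p = 0.971). Hdac2 exceeded Hdac1 in every library, by a log2 ratio of 2.88 and 2.92 in the controls and 2.74 and 2.90 in the knockdowns. Hdac3, the enzyme of NCoR and SMRT corepressors, had a log2 fold change of -0.045 (95% interval -0.16 to 0.067, limma adjusted p = 0.603), with both knockdown libraries slightly lower. Among class IIa enzymes, which shuttle between nucleus and cytoplasm with neuronal activity, Hdac5 was at 14.0 and 13.8 scaled TPM in the shLAC libraries and at 13.9 and 14.2 in the shCTCF libraries and overlapped, at 101% of control. Hdac9 was at 93.2% of control and overlapped, and Hdac4 at 106% with both knockdown libraries higher. Hdac8, a class I enzyme that deacetylates cohesin, was the lowest of the group at a mean of 1.56 scaled TPM and had a log2 fold change of -0.077 (95% interval -0.25 to 0.095, limma adjusted p = 0.562). The 7 genes summed to 105 ± 2.13 in shLAC and 101 ± 3.27 in shCTCF scaled TPM, 96.8% of control.

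Of the 8 genes of DNA methylation, 3 were higher at an unadjusted p below 0.05, against 11.8% of all tested genes, and 0 passed limma after adjustment, against 6.51%. Dnmt3a, the de novo methyltransferase of neurons, was at 22.0 and 22.5 scaled TPM in the shLAC libraries and at 26.2 and 25.1 in the shCTCF libraries. The groups did not overlap, at 116% of control, and the log2 fold change was 0.20 (95% interval 0.080 to 0.32, limma adjusted p = 0.0667). Dnmt1, the maintenance methyltransferase, was at 11.5 and 11.7 scaled TPM in the shLAC libraries and at 11.2 and 11.3 in the shCTCF libraries, with a log2 fold change of -0.038 (95% interval -0.16 to 0.086, limma adjusted p = 0.703). Dnmt3a exceeded Dnmt1 in every library, and the log2 ratio of Dnmt1 to Dnmt3a was -0.93 and -0.95 in the controls and -1.23 and -1.15 in the knockdowns, lower in both knockdown libraries. Of the MBD family, Mbd3, a NuRD subunit, was at 9.35 and 10.4 scaled TPM in the shLAC libraries and at 13.1 and 11.1 in the shCTCF libraries. Its log2 fold change was 0.27 (95% interval 0.058 to 0.48, limma adjusted p = 0.129). Mbd1 was at 5.65 and 5.06 scaled TPM in the shLAC libraries and at 6.72 and 6.19 in the shCTCF libraries, a log2 fold change of 0.23 (95% interval 0.057 to 0.41, limma adjusted p = 0.120). Both were higher in each knockdown library and did not pass. In fits with 1 shLAC library left, the log2 fold change of Mbd1 was 0.30 without replicate 1 and that of Mbd3 0.34 without replicate 2. Whether Mbd1 and Mbd3 passed depended on which library was left out. Mbd2 was at 6.53 and 6.18 scaled TPM in the shLAC libraries and at 6.44 and 6.35 in the shCTCF libraries, with overlap and a log2 fold change of 0.0071 (95% interval -0.14 to 0.15, limma adjusted p = 0.957).

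The TET dioxygenases, which oxidise methylcytosine, did not pass. Tet1 was at 3.69 and 4.20 scaled TPM in the shLAC libraries and at 3.51 and 3.30 in the shCTCF libraries, lower in both knockdown libraries at 86.4% of control, with a log2 fold change of -0.16 (95% interval -0.35 to 0.019, limma adjusted p = 0.251). Tet2 was at 93.2% of control, also lower in both, and Tet3 at 102%, with overlap. The 8 genes of this group summed to 74.2 ± 1.77 in shLAC and 79.7 ± 2.47 in shCTCF scaled TPM, 108% of control, and the sums of the groups did not overlap.

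Among the histone methylation enzymes, 6 of 7 had a positive log2 fold change, and 4 had both knockdown libraries above both controls, against 27.6% of all tested genes. None passed with limma, against 6.51%, and Kmt2d alone had an unadjusted p below 0.05, against 23.9%. Kmt2d, which methylates histone H3 at enhancers, was at 2.40 and 2.0 scaled TPM in the shLAC libraries and at 2.79 and 2.76 in the shCTCF libraries. It was at 126% of control, with a log2 fold change of 0.24 (95% interval 0.046 to 0.44, limma adjusted p = 0.139) and an unadjusted p of 0.0227. Kmt2a, a relative that acts at promoters, was at 3.36 and 3.54 scaled TPM in the shLAC libraries and at 3.77 and 4.16 in the shCTCF libraries, with a log2 fold change of 0.16 (95% interval -0.013 to 0.33, limma adjusted p = 0.240). The Ehmt pair, also known as GLP and G9a, places repressive methylation on histone H3. Ehmt2 was at 17.1 and 14.8 scaled TPM in the shLAC libraries and at 18.0 and 17.5 in the shCTCF libraries, a log2 fold change of 0.15 (95% interval -0.021 to 0.32, limma adjusted p = 0.262). Ehmt1 was at 6.26 and 7.22 scaled TPM in the shLAC libraries and at 6.83 and 6.71 in the shCTCF libraries, a log2 fold change of 0.0089 (95% interval -0.17 to 0.19, limma adjusted p = 0.957). Ehmt2 was the more abundant in every library, by a log2 ratio of 1.45 and 1.04 in the controls and 1.40 and 1.38 in the knockdowns, and shLAC replicate 2 alone was low in that ratio. Without shLAC replicate 1, which leaves 1 control library, the log2 fold changes of Kmt2d and Ehmt2 were 0.33 and 0.25. Whether Kmt2d and Ehmt2 passed depended on that library. Kdm5c, an X-linked demethylase of active marks, was at 11.4 and 11.2 scaled TPM in the shLAC libraries and at 11.9 and 12.5 in the shCTCF libraries, with both knockdown libraries higher and a log2 fold change of 0.11 (95% interval -0.024 to 0.24, limma adjusted p = 0.293). Setdb1, a methyltransferase of heterochromatin, was at 99.8% of control, and Kdm6b, near the expression filter, at 121%, both with overlap. Cers2 overlaps the locus of Setdb1 on the opposite strand, so reads there are uncertain where counting does not use strand. The 7 genes summed to 49.2 ± 1.28 in shLAC and 53.3 ± 0.687 in shCTCF scaled TPM, 108% of control.

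The acetyltransferases Crebbp, Ep300 and Kat6b had both knockdown libraries above both controls, 3 of 3 genes against 27.6% of all tested genes. With limma 0 passed, against 6.51% of all tested genes, and 0 had an unadjusted p below 0.05, against 23.9%. Of 17 other acetylation genes, 8 lay above both controls and 6 below. Crebbp, the coactivator CBP, was at 7.57 and 7.47 scaled TPM in the shLAC libraries and at 8.10 and 8.46 in the shCTCF libraries, with a log2 fold change of 0.12 (95% interval -0.012 to 0.26, limma adjusted p = 0.245). Its paralog Ep300, the coactivator p300, was at 5.33 and 5.53 scaled TPM in the shLAC libraries and at 5.88 and 6.10 in the shCTCF libraries, with a log2 fold change of 0.12 (95% interval -0.024 to 0.26, limma adjusted p = 0.284). The pair kept nearly 1 ratio, with a log2 ratio of Ep300 to Crebbp of -0.51 and -0.43 in the controls and -0.46 and -0.47 in the knockdowns. Kat6b was at 6.10 and 5.89 scaled TPM in the shLAC libraries and at 6.23 and 7.51 in the shCTCF libraries, with shCTCF replicate 2 apart from the rest and a log2 fold change of 0.16 (95% interval -0.041 to 0.37, limma adjusted p = 0.30). The 3 genes summed to 18.9 ± 0.0719 in shLAC and 21.1 ± 1.32 in shCTCF scaled TPM, 112% of control.

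**Figure D4:**
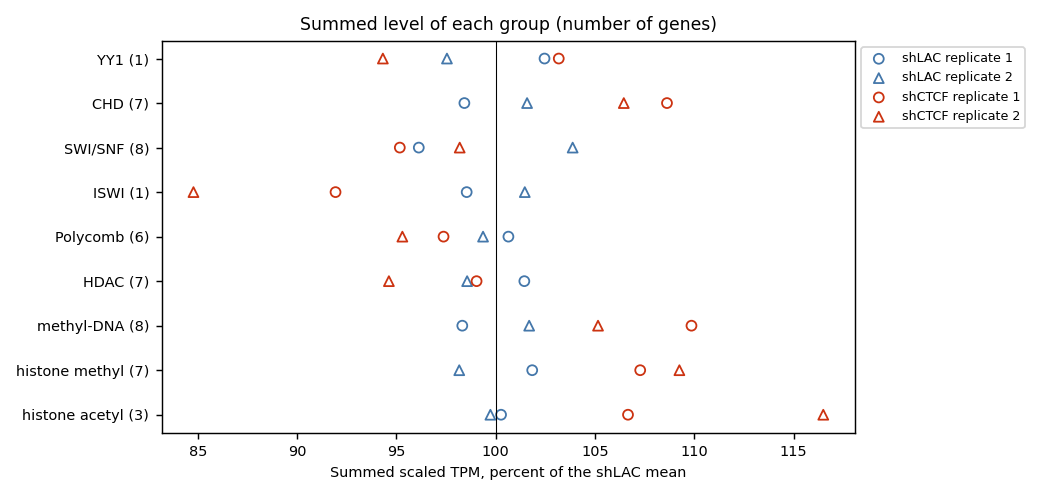
Summed scaled TPM of each functional group in each library, as percent of the shLAC mean, with the number of genes in brackets. The sums of all groups lay within a narrow band, from 88.4% of control for the single ISWI gene to 112% for the acetyltransferases (mean of the 2 shCTCF libraries).

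Over all 48 genes the summed level was 568 ± 9.46 in shLAC and 577 ± 3.45 in shCTCF scaled TPM, 102% of control. Sums of both shCTCF libraries lay above both controls for CHD, DNA methylation, histone methylation and acetyltransferase genes. They lay below both controls for Polycomb and ISWI genes, and the sums of SWI/SNF, deacetylases and Yy1 overlapped. For comparison, 54.8% of single tested genes did not overlap between the groups. A sum follows its most abundant genes, such as Chd3 among the CHD genes. Signs were mixed in DNA methylation (5 of 8 positive) and Polycomb genes (2 of 6 positive). No test was made of the sums.

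The 11 ratios of paralogs or alternative enzymes were compared within each library, where the scaling cancels. The groups did not overlap in 6 of them, higher in shCTCF for Smarca4 over Smarca2 (0.20) and Smarcc1 over Smarcc2 (0.39) and lower for Dnmt1 over Dnmt3a (-0.25), Rnf2 over Ring1 (-0.18), Chd4 over Chd3 (-0.13) and Chd4 over Chd5 (-0.084), as differences of mean log2 ratio. Among single tested genes, 54.8% did not overlap between the groups. For Smarca4 over Smarca2 and Chd4 over Chd5, the shLAC libraries differed from each other by more than the groups did. No test was made of the ratios. The more abundant gene of each pair was the same in all 4 libraries.

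**Figure D5:**
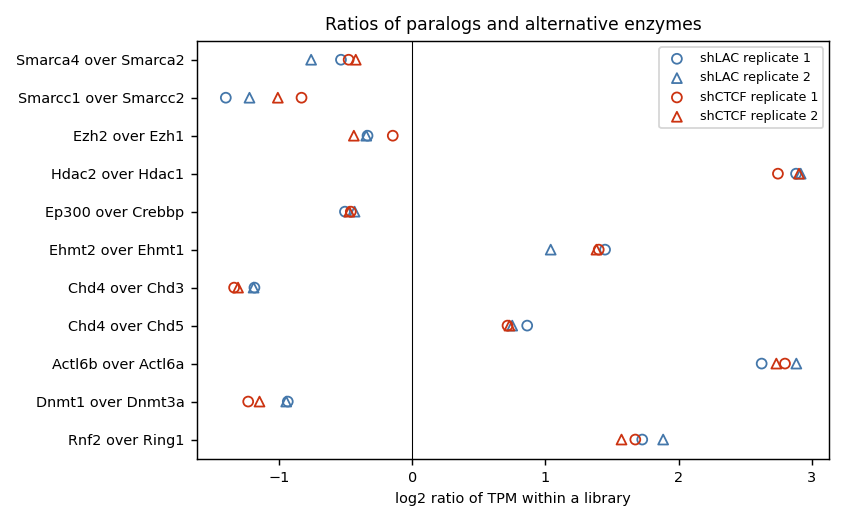
Log2 ratio of TPM between paralogs or alternative enzymes within each library, for shLAC (blue) and shCTCF (red), with circles for replicate 1 and triangles for replicate 2. The vertical line marks equal levels; every pair stays on 1 side of it, and Smarcc1 over Smarcc2 moves most, by 0.39.

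Other genes of the same complexes and families were taken from a list of 166, of which 156 were tested. Of these, 3 rose and 3 fell (3.85%, against 6.51% of all tested genes), and the median log2 fold change was 0.0074. In the values as deposited, in the fit over genes of any kind and without shCTCF replicate 1, 0 of these genes rose or fell. Without shCTCF replicate 2, 0 rose and 1 fell. At an unadjusted p below 0.05, 24 of the 156 were higher and 9 lower, together 21.2% against 23.9% of all tested genes (11.8% higher and 12.1% lower). In SWI/SNF, 1 of 19 fell: Bcl7c, an accessory subunit, was at 5.05 and 5.98 scaled TPM in the shLAC libraries and at 3.35 and 4.01 in the shCTCF libraries, a log2 fold change of -0.48 (standard error 0.0992, limma adjusted p = 0.0406). Among 13 CHD and NuRD genes Chd1l, a remodeller that responds to poly(ADP-ribose), was at 1.70 and 1.64 scaled TPM in the shLAC libraries and at 2.57 and 2.35 in the shCTCF libraries and rose by 0.37 on the log2 scale. Both genes were separated between groups. Among 38 histone methylation genes, Setd7, a lysine methyltransferase, was at 9.0 and 8.67 scaled TPM in the shLAC libraries and at 6.56 and 6.54 in the shCTCF libraries, a log2 fold change of -0.38 (standard error 0.0567, limma adjusted p = 0.0147). Kdm4b, a demethylase of heterochromatic marks, was at 9.68 and 9.90 scaled TPM in the shLAC libraries and at 12.4 and 12.2 in the shCTCF libraries, a log2 fold change of 0.30 (standard error 0.0527, limma adjusted p = 0.0245). Of 17 acetylation genes, Kat2b, the acetyltransferase PCAF, was at 1.88 and 1.88 scaled TPM in the shLAC libraries and at 1.13 and 1.05 in the shCTCF libraries, 58.0% of control, a log2 fold change of -0.46 (standard error 0.0724, limma adjusted p = 0.0173). Ncoa2, a nuclear receptor coactivator, was at 9.48 and 10.0 scaled TPM in the shLAC libraries and at 11.6 and 12.1 in the shCTCF libraries, a log2 fold change of 0.26 (standard error 0.0578, limma adjusted p = 0.0484). None of 26 other Polycomb genes, 20 deacetylase and corepressor genes and 9 DNA methylation genes passed with limma (6.51% of all tested genes did). None of 8 genes of INO80, SRCAP and ATRX complexes and 6 ISWI genes passed either. Of these sets, in order, 5, 2, 2, 1 and 1 were higher and 1, 0, 0, 0 and 0 lower at an unadjusted p below 0.05. The shares of all tested genes were 11.8% and 12.1%. In SWI/SNF, CHD, histone methylation and acetylation genes, 2, 2, 6 and 3 were higher and 2, 2, 3 and 1 lower. Dnmt3b, the methyltransferase of early development, was among the 10 genes that did not reach the filter and was at 0.156 scaled TPM or less in every library.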

How the data were processed

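Total RNA from cultured cortical cells was sequenced as paired reads, per the labels' protocols. The authors deposited TPM per Ensembl gene, with 37437 genes in each of 4 files. The submitters' processing notes list CASAVA, RSEM 1.2.28 and the build mm10, with no annotation release and no use of strand. GENCODE vM21 (GRCm38, the assembly of mm10) named 37060 of the identifiers. Because TPM sums to a fixed total, abundant RNA in 1 library lowers all its other genes. Protein-coding genes of at least 300 nt of merged exons and at least 1 TPM in at least 2 libraries, without predicted Gm genes, were therefore scaled by the median ratio and tested together on log2(scaled TPM + 1), a scale that understates changes of low genes. The test was limma 3.58.1 in R 4.3.3 with a prior variance that follows the level, without covariates, adjusted by Benjamini-Hochberg over 11139 genes at 0.05. The scripts were tested on simulated data. Members, lists and tests were chosen with earlier results of these data known. Genes described individually were Ctcf, members that passed, the 2 most abundant members of each group, members of the 11 ratios and, of other chromatin genes, up to 2 per group that passed; further members were given by percent of control, and some were described more fully after their values were seen. Alternatives covered scaling, genes fitted, pseudocount, filter, prior, replicate block and each library left out.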

Additional observations from a re-analysis of the deposited data

How the results depend on the processing

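Calls were few and depended on the setting. Of the members, 1 fell and 0 rose (Smarcc2), of other chromatin genes 3 rose and 3 fell, and of all tested genes 315 rose and 410 fell. In the values as deposited over the same genes, 0 members, 0 and 0 other chromatin genes and 106 and 50 of all genes rose and fell. Over all genes of any kind these were 0, 0 and 0, and 47 and 87 after scaling, and 0, 0 and 0, and 246 and 116 as deposited. With no filter on low values 0 members fell, 0 other chromatin genes rose and 1 fell, and 86 and 159 of all genes rose and fell; at a mean of at least 5 TPM 1 other chromatin gene rose and 1 fell, with 195 and 240 of all genes. Without a trended prior 0 members fell (Smarcc2 limma adjusted p = 0.0699). Leaving out 1 library at a time gave 0 to 3 members higher and 0 to 2 lower, 0 to 6 other chromatin genes higher and 0 to 3 lower, and 77 to 525 of all genes higher and 144 to 623 lower. The group left with 1 library is then taken to vary like the other. Without shLAC replicate 1, Ehmt2, Mbd1 and Kmt2d rose and Smarca2 and Smarcc2 fell; without shLAC replicate 2, Mbd3 rose; without shCTCF replicate 1 or 2, 0 members passed. With the replicate number as a block, 2 members rose (Dnmt3a and Mbd1, log2 fold changes 0.20 and 0.23), Smarcc2 fell, 5 other chromatin genes rose, and 641 and 765 of all genes rose and fell. The labels do not say that a replicate number marks a shared culture, and deviations of same-numbered libraries correlated at r = 0.25 over genes, a positive value from 2 pairs, so whether the numbers pair the libraries is not known and the block is given here alone.

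The log2 fold change of Smarcc2 was negative in each of the 15 alternatives, and Ctcf fell in each. All of these reuse the same 4 libraries, so the agreement of signs is not separate support. For both genes the groups did not overlap, so leaving out 1 library could hardly change the sign. The choice of prior and the replicate block left the log2 fold change of Smarcc2 at -0.24. The sign of 17 members differed as deposited, of 4 to 7 with 1 library left out, and of at most 4 in the other alternatives; none of these had passed. The cause of these dependencies was not tested. The largest log2 fold change of a member in size was 0.27 as reported, 0.45 as deposited, where the median of all genes was 0.17, and 0.26 to 0.38 in the others. With 2 libraries per group and unknown depth, log2 fold changes below about 0.20 could not pass.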
